A study of Canis lupus familiaris with 5 samples.

Results

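The genes described here are the longest models annotated on the dog autosomes. They are the 98 gene models, of 32220 in the count table, that lie on chromosomes 1 to 38 and extend over 500 kb or more from the first base of their first exon to the last base of their last exon. The rule uses length alone and no expression value, although it was set with earlier results of these data known. Their RNA was measured at 3 stages of reprogramming in cells of 1 adult dog, named K9. The fibroblast library came from cultured cells of ear skin at passage 1, the cells the study started from. The library of induced neural stem cell-like cells (iNSLCs) was made at passage 2 from cells of the primary dome-shaped colonies. Those colonies formed after the fibroblasts received the episomal EP-B vectors, which carry reprogramming factors, and were kept in the induction medium NSM. The other 3 libraries came from induced pluripotent stem cell (iPSC) clones at passages 9, 8 and 8, which arose after such cells were moved to the embryonic stem cell medium ESM. The clones were isolated mechanically. Fibroblasts and iNSLCs had 1 library each, passage and medium changed together with stage, and the clones share 1 donor.

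As background, a very long gene is mostly intron. Its RNA polymerase needs hours to travel from start to end, and its mature mRNA is no longer than that of many short genes. In mammals such genes are known for their work at cell contacts. They include many adhesion molecules and receptors of the synapse, ion channels, receptor phosphatases and scaffold proteins of the cytoskeleton, and neurons and the developing brain use many of them. The dog gene models carry Ensembl identifiers without symbols, and the table of names at hand matched 0 of them. The models are therefore given by position (build CanFam3.1), and what the single models encode is not said. For the same reason the labelled cell types could not be checked against their marker genes.

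The 98 models spanned 500.093 to 1299 kb, with a median of 608 kb. They had 6 to 104 exons (median 23) that together covered 432 to 19942 bp (median 4586 bp), so that exons made up a median of 0.718% of the span. The largest intron was 57.3 to 199 kb long, with a median of 150.5 kb, and exceeded 100 kb in 82 models. Every chromosome but one carried at least 1 of them (37 of 38), chromosome 14 the most, with 6. By strand, 54 ran on the plus and 44 on the minus strand. Other gene models lay inside the span of 89 of them, 303 in all, while exons of another model overlapped those of only 3 members, by 36 to 114 bp. The counts cover exonic reads, so the introns do not enter the values. The shortest member (chromosome 21, 7713173 to 8213266) spanned 500093 bp. The longest model on chromosomes 1 to 38 that was left out (chromosome 18, 16275577 to 16774085) spanned 498508 bp.

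Levels are given as CPM, the counts relative to the library total after scaling by TMM factors. A model is called on in a library at 1 CPM or more. Total counts ranged from 11699186 in the iNSLC library to 34317091 in iPSC clone 3, so the floor of 3 counts lay between 0.0810 and 0.262 CPM. Between 59.6% and 74.0% of the counts from 1 to 10 were even numbers, so the number of independent fragments may be lower than the counts, and intervals and floors cover counting error only. The long models together took 0.354% of all counts in fibroblasts (95% Clopper-Pearson interval 0.352 to 0.356), 0.423% in iNSLCs (0.419 to 0.426) and 0.270%, 0.220% and 0.197% in clones 1, 2 and 3. These are shares of the raw counts, before TMM scaling. After it, the summed CPM of the members was 4598 in fibroblasts and 4314 in iNSLCs, so the order of these 2 libraries depends on the scaling. In clones 1, 2 and 3 the scaled sum was 2467, 1960 and 1827.5 CPM. In bulk RNA, fewer cells that use a gene and less RNA per cell cannot be told apart.

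More of the very long genes were on in iNSLCs than at either other stage. Of the 98 models, 55 were on in fibroblasts, 85 in iNSLCs and 77, 72 and 73 in iPSC clones 1, 2 and 3, with 67 on in all 3 clones. The iNSLC library was the shallowest of the 5. The median level too was lowest in fibroblasts and highest in iNSLCs, at 3.69 CPM in fibroblasts, 16.4 CPM in iNSLCs and 8.77, 6.37 and 5.98 CPM in the clones. Models on in fibroblasts and off in iNSLCs numbered 1, and models off in fibroblasts and on in iNSLCs numbered 31. With a single library of each, this difference has no replicate check.

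This gap between fibroblasts and iNSLCs widened with span. In fibroblasts the share of models on was 56.1% at 500 kb or more, 63.6% at 250 to 500 kb, 63.5% at 100 to 250 kb and 36.5% under 100 kb. The iNSLC library had 86.7%, 86.2%, 71.9% and 39.5% in the same order, and the share on in all 3 clones was 68.4%, 72.2%, 65.3% and 36.0%. Among models on in at least 1 library, those off in fibroblasts and on in iNSLCs made up 34.8% of the longest class, 26.3% of the next, 12.7% of the third and 10.9% of the shortest. The classes also differ in the length of their mRNA, with a median exonic length of 997 bp under 100 kb against 4586 bp in the longest class. Within models of 3000 to 7000 bp of exon, a range chosen after the data were seen, the same share was 37.3%, 29.0%, 12.5% and 8.39% from the longest to the shortest class. These shares are descriptions of 5 libraries, and no test was made across the span classes.

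**Figure D1:**
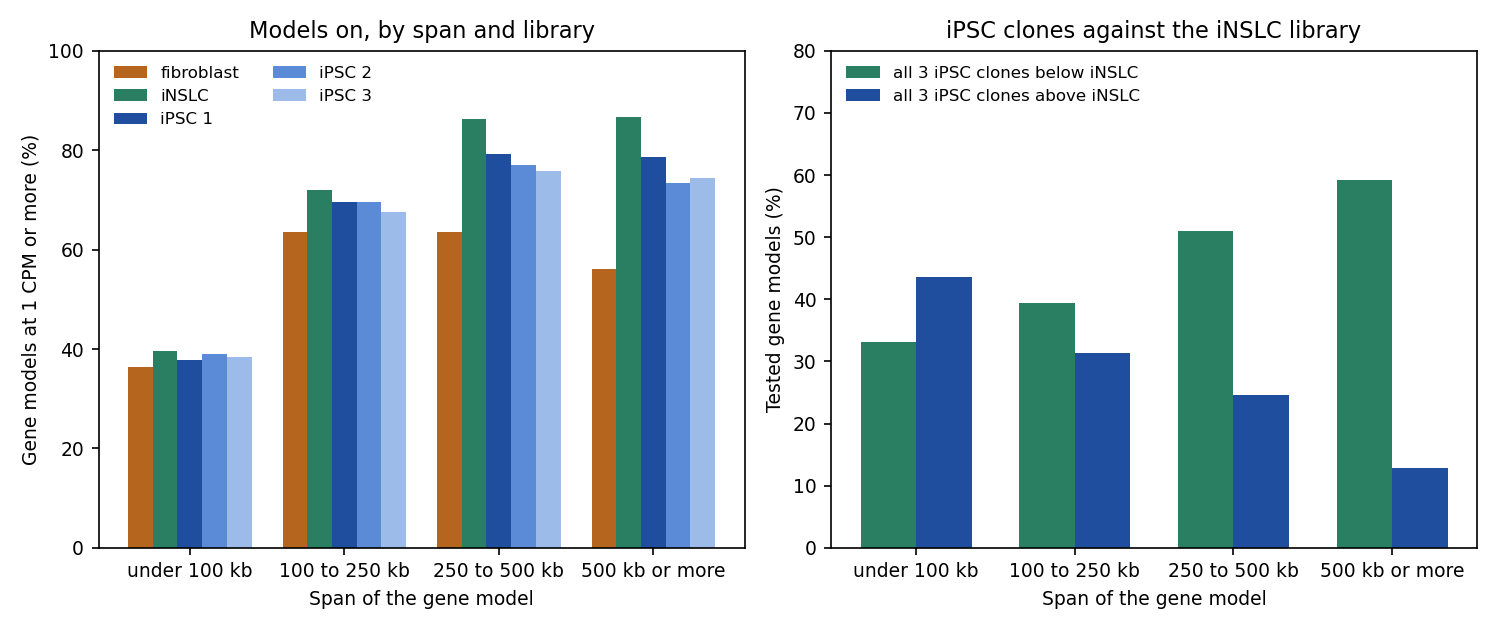
Left, percent of gene models at 1 CPM or more in each of the 5 libraries (bars), by span class. Right, percent of tested models with all 3 iPSC clones below or above the iNSLC library, by span class. The fibroblast bar is the lowest and the iNSLC bar the highest of the longest class (56.1% and 86.7%), and the share of models with all clones below iNSLCs rises from 33.2% under 100 kb to 59.1% at 500 kb or more. Bars have no error, since each is a share of models.

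The largest group, 49 of the 98 models, was on in all 5 libraries. Another 18 were on in iNSLCs and all clones but not in fibroblasts, 8 in iNSLCs and 1 or 2 clones, and 5 in iNSLCs only. A further 3 were on in fibroblasts, iNSLCs and 1 or 2 clones, 2 in fibroblasts and iNSLCs, 3 in 1 or 2 clones only and 1 in fibroblasts only. The remaining 9 stayed under 1 CPM everywhere. The 5 models with too few counts to be tested were 4 of these 9 and 1 of those on in iNSLCs only, with at most 14 counts in any library. At 250 to 500 kb, 56.2% of models were on in all 5 libraries, against 50% of the members. On in iNSLCs and all clones only were 14.8% against 18.4% of the members. For iNSLCs and 1 or 2 clones the shares were 5.14% against 8.16%, and for iNSLCs only 3.50% against 5.10%. No member was on in fibroblasts and iPSCs but off in iNSLCs, and no member was on in all clones but in no other library. Both patterns were rare among shorter models too. Models on in fibroblasts and all clones only made up 0.206% at 250 to 500 kb and 0.564% under 100 kb. Those on in all clones only made up 1.03% and 1.31%. Their absence among 98 models therefore does not set the long models apart.

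**Figure D2:**
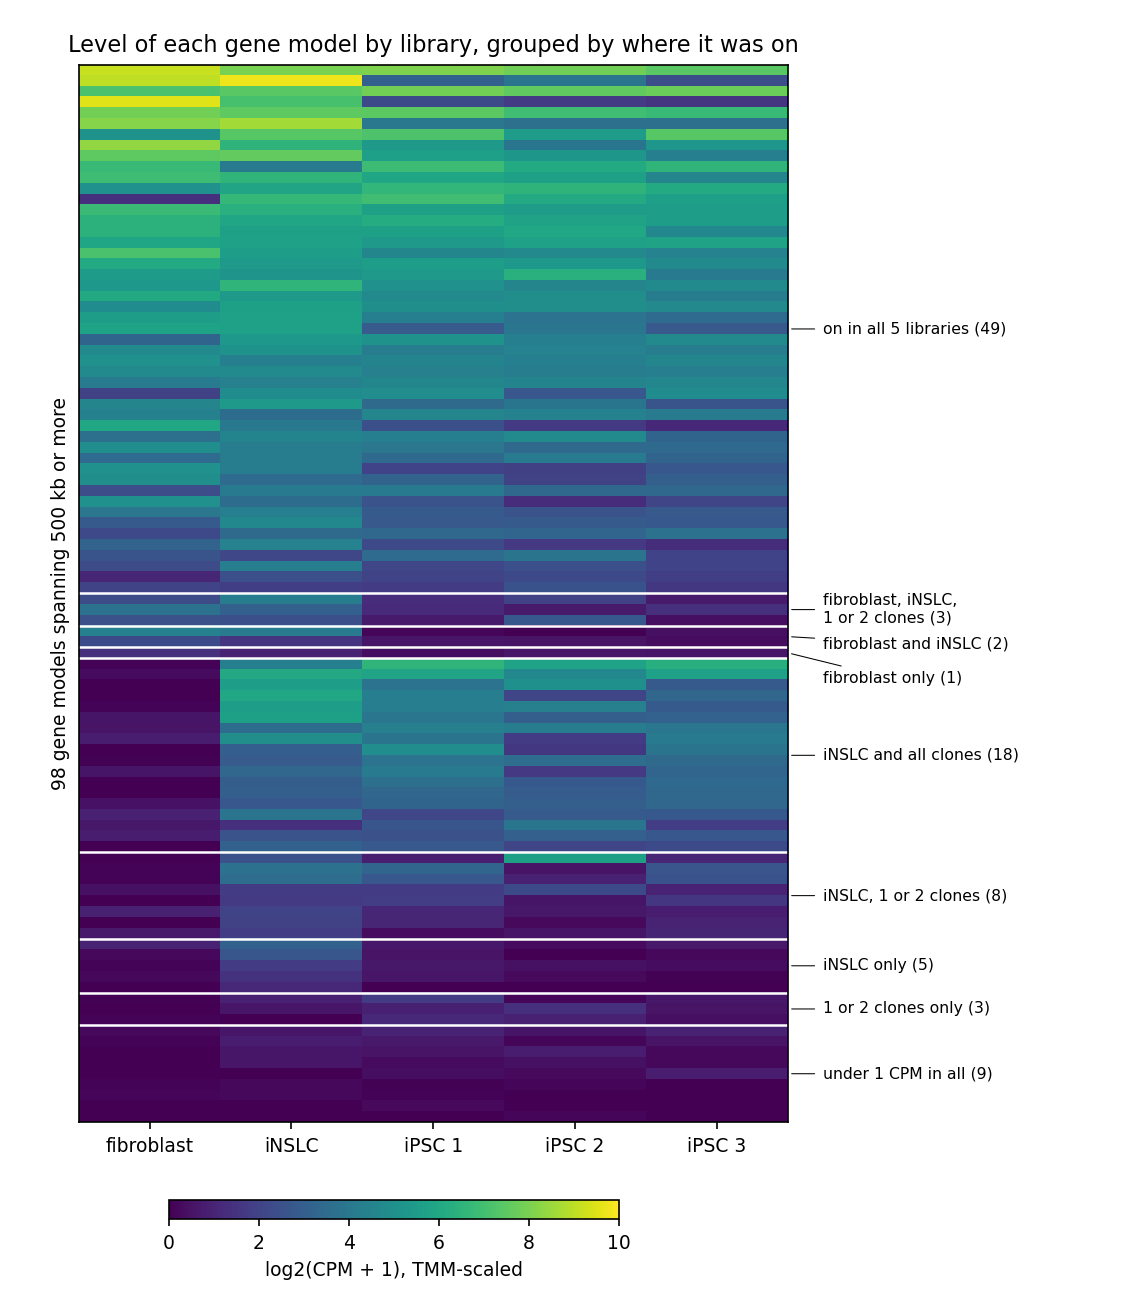
Level of each of the 98 gene models (rows) in each library (columns) as log2(CPM + 1), by colour from 0 to 10. Rows are grouped by the libraries in which the model was on, with the number of models beside each group. The 49 models at the top were on in all 5 libraries, and the block of 18 further down is dark in fibroblasts and bright in iNSLCs and the clones.

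The 18 models that were off in fibroblasts and on in iNSLCs and every clone ranged widely in level. One on chromosome 34 (2521662 to 3439858) spans 918 kb and is the fourth longest. It had 0.234 in fibroblasts, 64.3 in iNSLCs and 56.8, 24.1 and 51.8 CPM in iPSC clones 1, 2 and 3. Another on chromosome 4 (2368327 to 3099697) has the most exons of all members, 104, and 19942 bp of exon. It had 0.0781 in fibroblasts, 18.8 in iNSLCs and 93.4, 53.5 and 75.4 CPM in iPSC clones 1, 2 and 3, and every clone was above iNSLCs. On chromosome 1 (21794328 to 22494858), a model had no count in fibroblasts, 63.4 CPM in iNSLCs and 18.3, 3.25 and 8.83 CPM in iPSC clones 1, 2 and 3, and every clone was below iNSLCs. In fibroblasts 6 of the 18 had 0 counts, and the highest had 0.898 CPM. In iNSLCs the 18 ranged from 1.57 to 64.3 CPM.

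Models on at a single stage were few and low. The 5 that were on in iNSLCs only included the longest member of all, on chromosome 19 (42483134 to 43782305), with 1299 kb and 91 exons. It had 0.0781 in fibroblasts, 2.36 in iNSLCs and 0.557, 0.356 and 0.243 CPM in iPSC clones 1, 2 and 3, and these rest on 2, 27, 18, 8 and 9 counts. Another, on chromosome 20 (10230537 to 11058646), had 0.937 in fibroblasts, 7.59 in iNSLCs and 0.557, 0.223 and 0.621 CPM in iPSC clones 1, 2 and 3. Next came chromosome 17 (23010323 to 23689782), with 5.32 CPM in iNSLCs and 0 to 0.433 CPM in the clones. On chromosome 24 (30000993 to 30764482), a model reached 1.74 CPM in iNSLCs. The last, on chromosome 26 (33962360 to 34571935), had 14 counts in iNSLCs (1.22 CPM) and 0 in each of the other 4 libraries. The only model on in fibroblasts alone (chromosome 1, 50303045 to 50936915) lay close to the limit, with 1.64 in fibroblasts, 0.960 in iNSLCs and 0.309, 0.534 and 0.486 CPM in iPSC clones 1, 2 and 3.

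In 3 models the limit was passed in 1 clone only and at no other stage. On chromosome 37 (19037510 to 19723544), clone 1 had 2.35 CPM and clones 2 and 3 had 0.134 and 0.567 CPM. The second longest member (chromosome 13, 12401112 to 13569798, 1169 kb) had 0 in fibroblasts, 0.523 in iNSLCs and 0.835, 1.60 and 0.459 CPM in iPSC clones 1, 2 and 3. Lastly, chromosome 4 (17372258 to 18160293) had 0.0781 in fibroblasts, 0 in iNSLCs and 1.24, 0.890 and 0.324 CPM in iPSC clones 1, 2 and 3. All the other values of these 3 models lay under 1 CPM.

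The 10 longest models, from 789 to 1299 kb, were for the most part off in fibroblasts and on in iNSLCs. Of these, 3 were on in fibroblasts, 9 in iNSLCs and 4 in all clones. Besides those already described, chromosome 15 (38129189 to 39186359) had levels within a range of 2.28-fold. They were 3.12 in fibroblasts, 2.62 in iNSLCs and 2.38, 4.67 and 2.05 CPM in iPSC clones 1, 2 and 3. The model on chromosome 19 (35633416 to 36498816) had 2.77 in fibroblasts, 27.8 in iNSLCs and 28.7, 5.61 and 27.9 CPM in iPSC clones 1, 2 and 3, so that clone 2 stood nearer to fibroblasts than the other clones did. On chromosome 28 (25816300 to 26605650) the levels were 22.1 in fibroblasts, 40.5 in iNSLCs and 9.90, 13.8 and 5.05 CPM in iPSC clones 1, 2 and 3, with every clone below both other libraries. The remaining 3, on chromosome 16 (2728962 to 3641896), chromosome 20 (35097125 to 35929755) and chromosome 21 (42659696 to 43468362), had at most 0.586 CPM in fibroblasts and 2.53 to 10.9 CPM in iNSLCs. Their clones ranged from 0.178 to 5.54 CPM.

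The comparison of iPSCs with fibroblasts asked which very long genes differed between the end and the start of reprogramming. Of the 93 models with enough counts to be tested, 39 differed, 21 higher and 18 lower in iPSCs (edgeR quasi-likelihood test, Benjamini-Hochberg adjusted p under 0.05 over 17479 genes). That is 41.9% of those tested, where 28.0% of all genes were called, 13.7% higher and 14.3% lower. In the class of 250 to 500 kb the share was 37.6%, with 20.7% higher and 16.9% lower. The median log2 fold of the members was 0.39, against 0.27 for all genes tested. The 3 clones alone gave the spread (2 residual degrees of freedom), and a library without replicates was taken to vary as they do. With clone 3 left out 22 models were called (13 higher, 9 lower), with 2779 genes called in all, against 4895 with all clones. With clone 2 left out 58 were called (34 higher, 24 lower), with 6906 genes in all. The number of long models called thus moved with that of the whole table. By library size alone, without TMM, the split was 27 higher and 13 lower, and that scaling raised the median of all genes from 0.27 to 0.78. limma-voom called 13 higher and 18 lower, with 4690 genes called in all, and gave members a median of 0.08 against 0.20 for all genes.

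The models that rose in iPSCs were mostly off in fibroblasts. Of the 21, 18 were off there and 8 had no count at all, and 20 were on in iNSLCs. A call in this direction favours models low in fibroblasts, and the matching share among all genes called higher was not taken. The largest fitted fold belonged to ENSCAFG00000008759 (chromosome 15, 57985074 to 58670763). It had 0 in fibroblasts, 45.8 in iNSLCs and 13.0, 31.6 and 6.08 CPM in iPSC clones 1, 2 and 3, and the mean of the clones was at least 144-fold higher than the floor of 3 counts in the fibroblast library (adjusted p = 0.0124). ENSCAFG00000002402 (chromosome 14, 28914862 to 29609161) had 0 in fibroblasts, 6.98 in iNSLCs and 29.3, 2.05 and 13.2 CPM in iPSC clones 1, 2 and 3, at least 127-fold higher (adjusted p = 0.0320). Its clones differed among themselves by more than 10-fold. The chromosome 1 model at 21.8 Mb, with no count in fibroblasts, was at least 86.5-fold higher (adjusted p = 0.0154).

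Steadier rises came from models whose clones lay close together. On chromosome 12 (25586773 to 26142304), levels were 0 in fibroblasts, 7.07 in iNSLCs and 8.84, 6.59 and 9.51 CPM in iPSC clones 1, 2 and 3, at least 71.0-fold higher (adjusted p = 0.00314). A model on chromosome 17 (44051948 to 44557955) with only 8 exons had 0 in fibroblasts, 6.72 in iNSLCs and 11.8, 5.79 and 9.78 CPM in iPSC clones 1, 2 and 3, at least 77.9-fold higher (adjusted p = 0.00433). The 65-exon model on chromosome 16 (55140740 to 55827671) had 0, 7.68 and a mean of 4.32 ± 1.42 CPM (SD, n = 3) in fibroblasts, iNSLCs and iPSCs, at least 36.9-fold higher (adjusted p = 0.00593). Less even was chromosome 26 (2074728 to 2662470), with no count in fibroblasts, 2.27 CPM in iNSLCs and 2.57, 0.490 and 1.97 CPM in iPSC clones 1, 2 and 3, at least 14.3-fold higher (adjusted p = 0.0337).

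The other models named here had a few counts in fibroblasts. The 104-exon chromosome 4 model at 2.37 Mb had 2 counts there, and its clones averaged 74.1 ± 20.0 CPM (SD, n = 3), 949-fold higher by the counts as they stand (counting interval 263 to 7837) and 633-fold with the fibroblast library set to the floor (adjusted p = 0.00144). For chromosome 20 (14354108 to 14878553) there was 1 count in fibroblasts, 6.37 CPM in iNSLCs and 13.1, 11.04 and 10.02 CPM in iPSC clones 1, 2 and 3, 291-fold higher by the counts as they stand (counting interval 52.3 to 11513) and 97.2-fold with fibroblasts set to the floor (adjusted p = 0.00279). The chromosome 34 model at 2.52 Mb had 6 counts in fibroblasts, and its clones averaged 44.2 ± 17.6 CPM (SD, n = 3), a log2 fold of 7.53 (SE 0.91, adjusted p = 0.00383). The remaining 11 of the 21 had fitted log2 folds from 1.39 to 7.63 and adjusted p from 0.00371 to 0.0497. Of the 10 models named in this direction, all kept their call with clone 1 or clone 2 left out. Without clone 3 the chromosome 14 model at 28.9 Mb, the chromosome 1 model at 21.8 Mb and the chromosome 26 model at 2.07 Mb lost it. By limma-voom these 3 and the chromosome 15 model at 58.0 Mb lost it.

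All 18 models that fell in iPSCs had been on in fibroblasts, and 15 of them were still on in every clone. That they were on in fibroblasts largely follows from the call, since a fall needs counts to fall from. The largest fall was that of ENSCAFG00000019974 (chromosome 5, 68492245 to 69273196), which had the highest level per kb of exon in fibroblasts. It had 728 in fibroblasts, 135 in iNSLCs and 3.74, 2.36 and 1.92 CPM in iPSC clones 1, 2 and 3 (log2 fold -8.09, SE 0.43, adjusted p = 0.000802). Every clone was below iNSLCs, which were in turn below fibroblasts. ENSCAFG00000008028 (chromosome 23, 38814301 to 39353337) had 20.0 in fibroblasts, 16.7 in iNSLCs and 0.124, 0 and 0.324 CPM in iPSC clones 1, 2 and 3 (log2 fold -6.91, SE 1.01, adjusted p = 0.00653). It was on at near-equal levels in both earlier stages and off in every clone, where it had 4, 0 and 12 counts. On chromosome 1 (67514264 to 68100315), a model of 66 exons had 527 in fibroblasts, 849.5 in iNSLCs and 7.55, 13.3 and 4.24 CPM in iPSC clones 1, 2 and 3 (log2 fold -5.98, SE 0.57, adjusted p = 0.00208). The same order, iNSLCs above fibroblasts and clones low, was found on chromosome 37 (13640177 to 14233378). The chromosome 37 model had 293 in fibroblasts, 392 in iNSLCs and 15.0, 11.8 and 12.0 CPM in iPSC clones 1, 2 and 3 (log2 fold -4.51, SE 0.29, adjusted p = 0.000970).

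In 6 other models fibroblasts were highest, iNSLCs lay between and the clones were lowest. The model on chromosome 14 (32788493 to 33304272) had 63.5 in fibroblasts, 15.3 in iNSLCs and 4.39, 2.27 and 1.13 CPM in iPSC clones 1, 2 and 3 (log2 fold -4.61, SE 0.66, adjusted p = 0.00634). That on chromosome 7 (73815576 to 74597564) had 335 in fibroblasts, 90.8 in iNSLCs and 41.2, 13.9 and 37.4 CPM in iPSC clones 1, 2 and 3, with clone 2 lowest (log2 fold -3.44, SE 0.55, adjusted p = 0.00836). On chromosome 34 (38980043 to 39631299) the levels were 32.5 in fibroblasts, 10.7 in iNSLCs and 4.82, 1.42 and 3.30 CPM in iPSC clones 1, 2 and 3 (log2 fold -3.35, SE 0.63, adjusted p = 0.0140). The pattern recurred at low level on chromosome 32 (4569410 to 5149622), where fibroblasts had 12.3, iNSLCs 7.41 and the clones a mean of 1.17 ± 0.450 CPM (SD, n = 3), a log2 fold of -3.38 (SE 0.59, adjusted p = 0.0110). It recurred too on chromosome 24 (46668623 to 47275543), one of the 3 members that share exonic bases with another model, with 32.1, 17.5 and 3.75 ± 1.56 CPM (SD, n = 3), a log2 fold of -3.09 (SE 0.50, adjusted p = 0.00904). Nearer to the limit of 1 CPM, chromosome 7 (9125225 to 9631145) had 3.71, 1.92 and 0.405 ± 0.146 CPM (SD, n = 3), a log2 fold of -3.19 (SE 0.69, adjusted p = 0.0208). The 8 further models had fitted log2 folds from -1.23 to -2.63 and adjusted p from 0.00338 to 0.0417. All 10 named kept their call without clone 1 or clone 2, and those on chromosome 7 (both) and at 38.98 Mb of chromosome 34 lost it without clone 3.

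**Figure D3:**
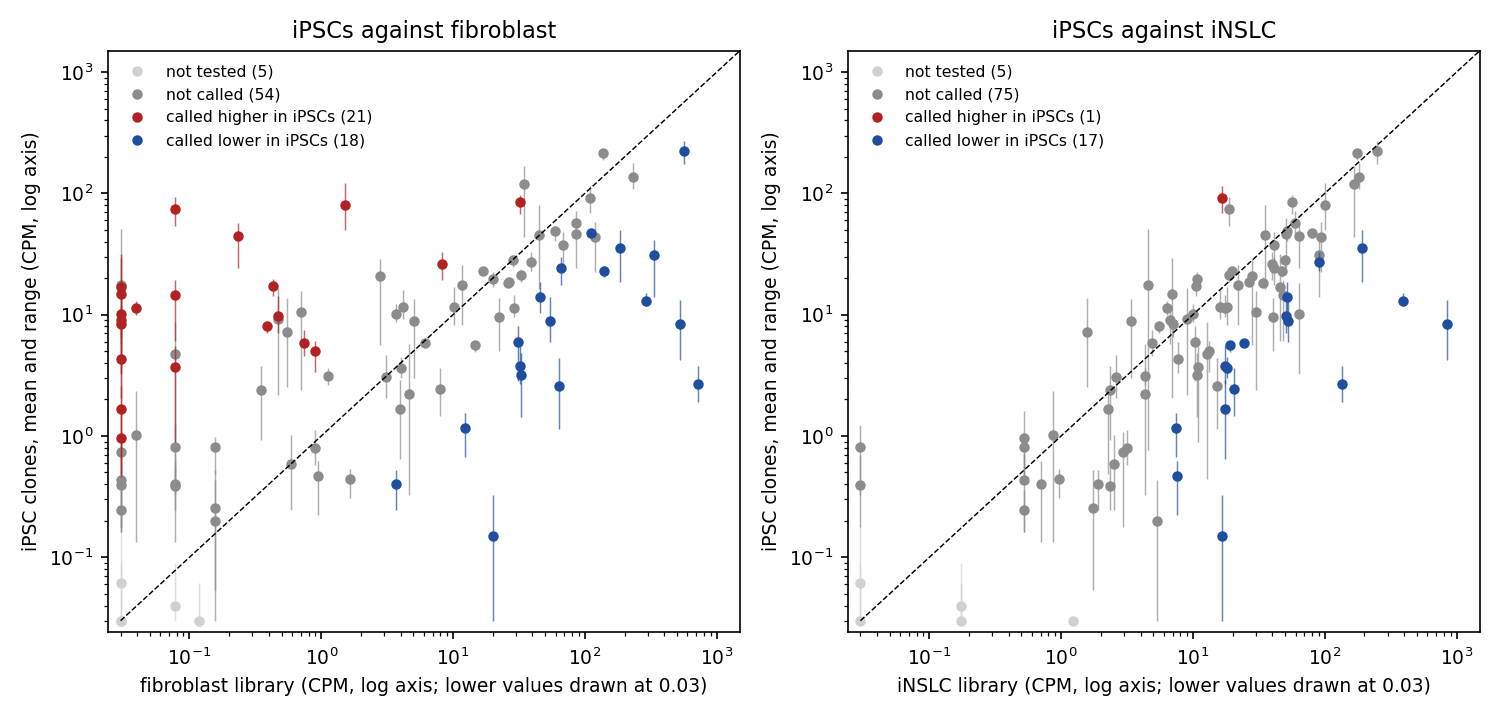
Mean level of the 3 iPSC clones (points) and their range (vertical lines) against the fibroblast library (left) and the iNSLC library (right) for the 98 gene models, in CPM on log axes. Values under 0.03 CPM are drawn at 0.03, and the dashed line marks equal levels. Of the 21 models called higher in iPSCs than in fibroblasts (red), 18 lay under 1 CPM in fibroblasts, and 17 models were called lower (blue) and 1 higher in iPSCs than in iNSLCs.

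The comparison of iPSCs with iNSLCs asked how the very long genes differed between the neural stem cell-like colonies and the pluripotent clones. They were mostly lower in the clones. Of 93 tested models, 17 were lower and 1 higher in iPSCs (edgeR quasi-likelihood test, Benjamini-Hochberg adjusted p under 0.05), 19.4% together, where 11.2% of all genes were called, 7.71% lower and 3.51% higher. The median log2 fold was -0.76 for the members and 0.20 for all genes tested. All 3 clones lay below the iNSLC library in 55 of the 93 (59.1%), against 34.3% of all genes, and all 3 above it in 12 (12.9%), against 41.8%. From the longest to the shortest span class, the share with all clones below iNSLCs was 59.1%, 51.0%, 39.4% and 33.2%. Within 3000 to 7000 bp of exon it was 53.8%, 48.4%, 40.5% and 29.9%. The calls depended on clone 3. Without it edgeR called 0 of 92 long models, and 0 of all genes, with 32 long models at an unadjusted p under 0.05. Without clone 2 it called 33 (31 lower), with 4159 genes called in all. With all clones, DESeq2 called 25 (of 3480 genes called in all) and limma-voom 16 (of 1701). The median log2 fold stayed between -0.79 and -0.88 with any 1 clone left out.

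The 17 models that were lower in iPSCs than in iNSLCs comprised 9 also called lower than in fibroblasts, 7 without a call against fibroblasts and 1 called higher than in fibroblasts. The matching split among all genes called lower than in iNSLCs was not taken, so this split cannot be read as a trait of the long models. The 9 include both with the largest fitted folds, ENSCAFG00000001106, the 66-exon model on chromosome 1 at 67.5 Mb (log2 fold -6.67, SE 0.59, adjusted p = 0.00378), and ENSCAFG00000008028 on chromosome 23 at 38.8 Mb (log2 fold -6.65, SE 1.01, adjusted p = 0.0172). They also include the chromosome 5 model at 68.5 Mb (log2 fold -5.65, SE 0.40, adjusted p = 0.00237) and the chromosome 37 model at 13.6 Mb (log2 fold -4.92, SE 0.29, adjusted p = 0.00151), whose levels are given above. The last was 30.3-fold lower in the clones than in iNSLCs by their means. Some of the others kept moderate levels in the clones. On chromosome 27 (44159568 to 44746429), levels were 54.5 in fibroblasts, 52.3 in iNSLCs and 6.40, 14.1 and 5.92 CPM in iPSC clones 1, 2 and 3 (log2 fold -2.57, SE 0.54, adjusted p = 0.0367). On chromosome 6 (51814573 to 52578213) they were 184 in fibroblasts, 191 in iNSLCs and 49.6, 37.7 and 18.7 CPM in iPSC clones 1, 2 and 3 (log2 fold -2.44, SE 0.50, adjusted p = 0.0347). The chromosome 32 model at 4.57 Mb was called as well (log2 fold -2.65, SE 0.60, adjusted p = 0.0440).

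In all 7 without a call against fibroblasts the iNSLC level was the highest of the 3 stages. That largely follows from how they were picked, as called lower than in iNSLCs and not called against fibroblasts. The largest fold among them was that of the chromosome 20 model at 10.2 Mb (log2 fold -3.99, SE 0.71, adjusted p = 0.0248), which was on in iNSLCs only. On chromosome 23 (14454994 to 15136452), levels were 3.98 in fibroblasts, 17.6 in iNSLCs and 1.42, 2.89 and 0.648 CPM in iPSC clones 1, 2 and 3 (log2 fold -3.42, SE 0.77, adjusted p = 0.0439). On chromosome 10 (42586618 to 43111084) they were 7.96 in fibroblasts, 20.5 in iNSLCs and 3.62, 2.18 and 1.46 CPM in iPSC clones 1, 2 and 3 (log2 fold -3.08, SE 0.58, adjusted p = 0.0288). The other 4 had fitted log2 folds from -1.75 to -2.33. A single model was called in both comparisons with opposite sign, the one just inside the span limit on chromosome 21 at 7.71 Mb. It had 0.469 in fibroblasts, 50.7 in iNSLCs and 14.3, 7.12 and 7.75 CPM in iPSC clones 1, 2 and 3, higher than in fibroblasts (log2 fold 4.36, SE 0.74, adjusted p = 0.0103) and lower than in iNSLCs (log2 fold -2.38, SE 0.49, adjusted p = 0.0356). It overlaps another model in exonic bases. The comparisons share the iPSC libraries and are not independent.

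The only model called higher in iPSCs than in iNSLCs, ENSCAFG00000004902 (chromosome 22, 15572575 to 16079207), was lowest in iNSLCs. It had 109.6 in fibroblasts, 16.6 in iNSLCs and 116, 68.4 and 91.8 CPM in iPSC clones 1, 2 and 3 (log2 fold 2.47, SE 0.46, adjusted p = 0.0271). The clones lay on both sides of the fibroblast level, and iNSLCs below all of them. Without clone 3, when no gene at all was called, its log2 fold was 2.39. DESeq2, with all clones, made the same call. The 104-exon chromosome 4 model, at 18.8 CPM in iNSLCs against a clone mean of 74.1 ± 20.0 CPM (SD, n = 3), had all clones higher and missed the threshold (log2 fold 1.98, SE 0.47, adjusted p = 0.0507).

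**Figure D4:**
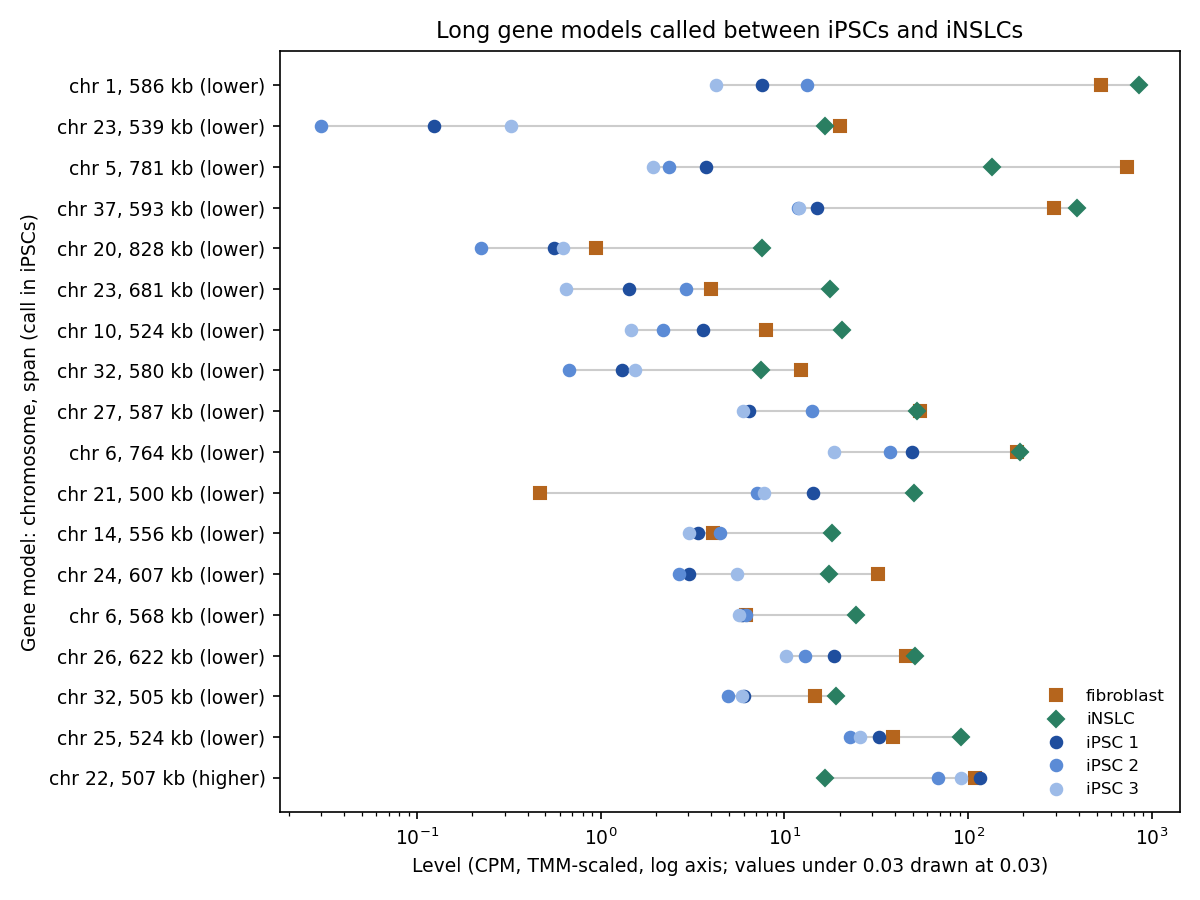
Level in each of the 5 libraries (CPM, log axis) of the 18 long gene models called between iPSCs and iNSLCs, 1 per line, ordered by fitted fold. In 17 of them the 3 clones (blue circles) lie left of the iNSLC library (green diamond), and in the bottom one, on chromosome 22, they lie right of it. Values under 0.03 CPM are drawn at 0.03, and the fibroblast library (brown square) lies near or above iNSLCs in some lines and near the clones in others.

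The first step, from fibroblasts to iNSLCs, compares 1 library with 1 and was first described by ratios. Of the 60 models with at least 10 CPM in 1 of them, 17 were at least 4-fold higher in iNSLCs (28.3%) and 3 at least 4-fold lower (5%). Over all genes at that level the shares were 7.95% and 5.69%, and in the class of 250 to 500 kb 20.9% and 4.79%. At a minimum of 1 CPM in the higher library, 35 were higher and 3 lower of 86, and the share over all genes was not taken there. The median log2 ratio, with libraries under 3 counts set to 3, was 0.38 for the 60 members and -0.21 for all genes at that level. Without a minimum level it was 1.49 for 92 members and 0.00 for all genes. The same difference was also tested in the edgeR fit of all 5 libraries, a test added after the data were seen, in which both lone libraries are taken to vary as the 3 clones do. It called 14 of 93 long models (Benjamini-Hochberg adjusted p under 0.05), 13 higher in iNSLCs (14.0%) and 1 lower (1.08%), where 3.93% of all genes were called, 3.10% higher and 0.830% lower. DESeq2 called 30 and limma-voom 1. Without clone 2 edgeR called 39, and without clone 3 it called 0, of all genes too, with 38 long models at an unadjusted p under 0.05. The chromosome 1 model at 21.8 Mb had 0 counts in fibroblasts and 727 in iNSLCs, at least 541-fold higher (adjusted p = 0.0343). On chromosome 18 (47404040 to 48062551), 2 counts in fibroblasts stood against 550 in iNSLCs, 614-fold by the counts as they stand (counting interval 169 to 5086) and 409.6-fold with fibroblasts set to the floor (adjusted p = 0.0270). Its clones had 18.2, 19.5 and 6.05 CPM, all below the 48.0 CPM of iNSLCs. The chromosome 15 model at 58.0 Mb was at least 391-fold higher, the chromosome 34 model at 2.52 Mb 274-fold (125 to 750.2) and the chromosome 4 model at 2.37 Mb 241-fold (66.0 to 2005), or 161-fold with its 2 fibroblast counts set to the floor.

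Fewer models were lower in iNSLCs than higher. The chromosome 22 model at 15.6 Mb was 6.61-fold lower (counting interval 5.71 to 7.70) in iNSLCs than in fibroblasts, and is the 1 that was called (log2 fold -2.72, SE 0.51, adjusted p = 0.0456). For the chromosome 5 model at 68.5 Mb the level was 5.40-fold lower (counting interval 5.13 to 5.69), and for the chromosome 14 model at 32.8 Mb 4.16-fold lower (counting interval 3.56 to 4.89). Next in rank, under the 4-fold limit, were the chromosome 7 model at 73.8 Mb, 3.69-fold lower (counting interval 3.46 to 3.94), and the chromosome 34 model at 38.98 Mb, 3.03-fold lower (counting interval 2.51 to 3.69). Except for the chromosome 22 model, all of them were lower still in every clone.

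Among the 49 models on in all 5 libraries, 7 stayed within 2-fold from the lowest to the highest library and 12 differed by more than 10-fold. The steadiest, on chromosome 23 (10578507 to 11176518), had 16.9 in fibroblasts, 19.7 in iNSLCs and 22.8, 21.9 and 23.7 CPM in iPSC clones 1, 2 and 3, a range of 1.40-fold. Close to it were chromosome 13 (34579099 to 35115818), with 59.1 in fibroblasts, 51.6 in iNSLCs and 40.5, 52.2 and 53.8 CPM in iPSC clones 1, 2 and 3, and chromosome 6 (30317098 to 30822479), with 26.7 in fibroblasts, 26.6 in iNSLCs and 19.6, 17.9 and 18.2 CPM in iPSC clones 1, 2 and 3. These 3 were chosen for their small range after the values were seen. Per kb of exon, which allows a comparison of levels between models, the 5 highest means over the stages were found on chromosomes 5, 4, 31, 6 and 37. The chromosome 5 model at 68.5 Mb had 347 CPM per kb in fibroblasts, 64.3 in iNSLCs and 1.27 in iPSCs. The model on chromosome 4 (24540700 to 25046288) had 78.3, 46.9 and 42.3 CPM per kb, and that on chromosome 31 (8082561 to 8595381) 80.1, 35.4 and 31.7. For the chromosome 6 model at 51.8 Mb the values were 57.5, 59.9 and 11.1, and for the chromosome 37 model at 13.6 Mb 41.0, 54.7 and 1.80. The top 5 of each library held 53.3% of the members' CPM in fibroblasts, 43.2% in iNSLCs and 36.2% to 41.6% in the clones.

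The clones did not keep these genes at the same level. The median coefficient of variation over the 3 clones was 31.0% for the 67 long models on in every clone, against 22.4% for the other models on in every clone. Clone 1 was the highest of the 3 in 53 of the 98 models and clone 3 the lowest in 47. Clone 2 stood apart by the largest steps, at least 4-fold below both other clones in 8 models and at least 4-fold above both in 2, among the models on in at least 1 clone. Such steps numbered 1 for clone 1, above both others, and 0 for clone 3. Ranks and steps were not counted for the other models. Over all genes, the biological coefficient of variation in the edgeR fit was 42.5% with all clones and 31.7% without clone 2. It was 46.7% without clone 1 and 41.8% without clone 3. Clone 2 thus stood apart over the whole table, so its steps cannot be read as particular to the long models. Of the 8, chromosome 28 (16909796 to 17491098) had the widest gap, with 0.0781 in fibroblasts, 12.7 in iNSLCs and 8.69, 0.445 and 5.21 CPM in iPSC clones 1, 2 and 3. On chromosome 16 (19904341 to 20562653) the levels were 0.703 in fibroblasts, 30.1 in iNSLCs and 13.5, 2.40 and 15.7 CPM in iPSC clones 1, 2 and 3. A model on chromosome 36 (642898 to 1157226) went the other way, with 0 in fibroblasts, 4.54 in iNSLCs and 0.773, 50.8 and 1.08 CPM in iPSC clones 1, 2 and 3. So did chromosome 32 (16099479 to 16757270), with 4.65 in fibroblasts, 4.36 in iNSLCs and 0.649, 5.74 and 0.324 CPM in iPSC clones 1, 2 and 3, where clone 2 alone was near the level of fibroblasts and iNSLCs. These 4 were picked for their difference after the values were seen, and with 1 library per clone no test applies. With clone 2 left out 71 models were on in all remaining clones, against 67 with all 3. Leaving out any clone can only keep or raise this number, so the rise itself says nothing about clone 2.

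**Figure D5:**
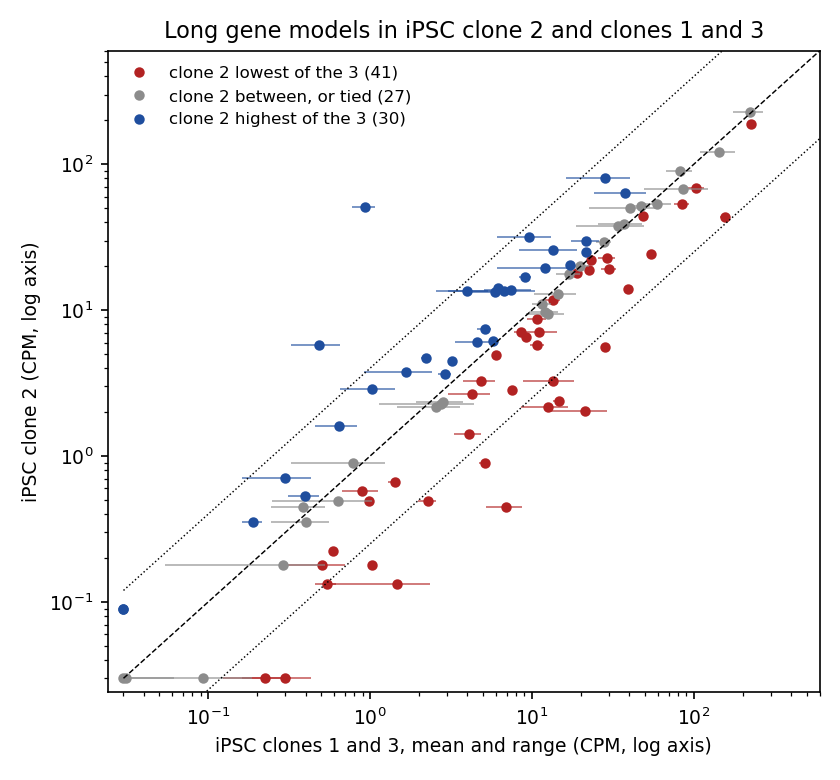
Level of the 98 gene models in iPSC clone 2 against the mean of clones 1 and 3 (points) with their range (horizontal lines), in CPM on log axes. The dashed line marks equal levels and the dotted lines 4-fold differences. Clone 2 was the lowest of the 3 clones in 41 models (red) and the highest in 30 (blue), and the blue point far above the lines at 50.8 CPM is the chromosome 36 model.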

How the data were processed

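RNA of 5 dog libraries was sequenced. The authors deposited raw read counts per gene model, without normalization. The submitters' processing notes name featureCounts 1.5.2, STAR 2.5.3a and Trim Galore 0.4.0, on CanFam3.1. The sources used here do not give the strand setting. Spans, exons and introns were read from the coordinates in the count table. Reads from the vectors were not separated.

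The quasi-likelihood test of edgeR 4.0.16 (R 4.3.3, TMM, filterByExpr) was fitted once to all 5 libraries and 3 groups, with Benjamini-Hochberg adjustment over 17479 genes. DESeq2 1.42.0 and limma-voom (limma 3.58.1) were alternatives, as were other scalings, filters, limits and each clone left out. P-values measure the spread between clones of 1 dog. SE is the absolute log2 fold divided by the square root of F. iNSLCs and fibroblasts, 1 library each, were compared by ratios and, added later, in the same fit. Counts of 4-fold models, ranks and medians set libraries under 3 counts to 3 (the floor). A fold from 0 counts is taken at the floor, which is less strict than the exact 95% counting limit. One from 1 or 2 counts is given as it stands, with its exact 95% counting interval, and at the floor.

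The rule names the 10 longest models, up to 10 called per direction and tested comparison (at least 1 CPM in the higher group, all clones on one side, ranked by fitted fold, the first 2 with their identifier), the 5 largest ratios per direction between iNSLCs and fibroblasts, models on at 1 stage only, the 5 highest per kb of exon, and those beside the span limit. Members, lists and rules were chosen with earlier results of these data known.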

Additional observations from a re-analysis of the deposited data

How the results depend on the processing

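Most counts and medians moved by less than 1.5 times, or by less than the spread between clones, under the alternatives tried. No direction was reversed for the medians or the models named in the tested comparisons. Long models called against fibroblasts numbered 39, and 22 to 58 with each clone left out (13 to 34 of them higher, 9 to 24 lower). All genes called then numbered 4895, and 2779 to 6906. At an adjusted p under 0.01 the long models called were 18 (10 higher, 8 lower), with 1726 genes called in all, and limma-voom called 13 higher. Calls against iNSLCs numbered 18, and 0 to 33 with each clone left out (0 to 31 lower), and 3, all lower, at an adjusted p under 0.01. All genes called then numbered 1961, 0 to 4159 and 324 in the same order. The median log2 fold against fibroblasts was 0.39 and moved to 0.88 by library size alone, where the median of all genes was 0.78, and to 0.085 by limma-voom. Relative to all genes it changed sign, from 0.12 to -0.11 by limma-voom, -0.28 without the filter and -0.02 without clone 2, so members and all genes are not told apart by it. Against iNSLCs the difference from all genes was -0.85 to -1.22 in every setting. Between iNSLCs and fibroblasts, 20 models differed 4-fold, 38 (35 higher) at a minimum of 1 CPM, and 8 were lower at a 2-fold limit. Shares over all genes were not taken at those other limits. The added test of that step called 14, and 0 to 39 with each clone left out. At a span of 1 Mb or more there were 3 models, of which 1 was on in fibroblasts, 2 in iNSLCs and 1 in all clones, and 1 in iNSLCs but not fibroblasts. Without clone 3 no gene of the table was called against iNSLCs, so none of the 11 models named there could keep a call, while their log2 folds were -7.87 to -2.21 (10 lower) and 2.39. No paired analysis was possible because the groups share fewer than 2 replicate numbers. Depth limits the low models, and the 5 not tested had at most 14 counts in any library.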

Other observations

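On the X chromosome, which the span rule did not include, 3 further gene models spanned 500 kb or more. The longest gene model among them (26290714 to 28333431, 2043 kb, 79 exons) had 11.2 CPM in fibroblasts, 17.1 CPM in iNSLCs and 14.6, 14.2 and 12.0 CPM in iPSC clones 1, 2 and 3, and was not called in either tested comparison (edgeR quasi-likelihood test, adjusted p = 0.637 and 0.601). A model at 69994661 to 71044235 had 159.8 CPM in fibroblasts, 16.2 CPM in iNSLCs and 4.64, 19.9 and 6.08 CPM in the clones, and was lower in iPSCs than in fibroblasts (log2 fold -3.97, SE 0.75, adjusted p = 0.0143). Clone 2 lay above iNSLCs and the other clones below. The third, at 95769881 to 96338532, had 0 CPM in fibroblasts, 2.27 CPM in iNSLCs and 1.55, 0.490 and 0.378 CPM in the clones (adjusted p = 0.0525 against fibroblasts). These 3 models are given as values, and the rule that chose the 98 others was not changed for them.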
